A study of Mus musculus with 8 samples.

Results

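Whole testes of wild type male mice at postnatal day 8 were profiled on Agilent Whole Genome Mouse arrays, and the 4 wild type samples of a series of 8 are described here without a genotype contrast. The 4 samples were chosen by their label alone, and the other samples of the series, from VRK1-deficient testes of the same age, were not used. Total RNA was extracted with Trizol, and 0.5 µg per sample was turned into Cy3-labelled cRNA and hybridized to 1 array. The labels call the samples biological replicates and give sex, tissue and genotype, with no strain, treatment or litter. The mutant line of the study carries a gene trap in the Vrk1 gene and was backcrossed to C57BL/6, and the labels do not say whether the wild type animals were littermates. Whole testes hold every cell type of the organ, so that fewer cells of a type and less RNA per cell cannot be told apart.

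The mouse testis is built of seminiferous tubules, in which Sertoli cells nurse the germ cells, and of an interstitium with steroid-producing Leydig cells, fibroblasts, vessels and macrophages. A layer of contractile peritubular myoid cells wraps each tubule. After birth the germ cells enter the first wave of spermatogenesis together: undifferentiated spermatogonia, which include the stem cells, give rise to differentiating spermatogonia that turn on Kit and Stra8, these enter the prophase of meiosis as spermatocytes, and haploid spermatids follow only later in the wave. An array of the whole organ at this age therefore reads a mixture of many somatic cell types with spermatogonia and the earliest meiotic cells.

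Each array carried 43379 non-control spots, which read 41174 different probes, each 60 bases long. A probe was counted as detected where the scanner software marked it as well above background. On all 4 arrays this held for 25433 probes (61.8%), on 3, 2 or 1 arrays for 1545, 1063 and 1245 probes, and on no array for 11888 probes (28.9%). In terms of genes, 19512 RefSeq symbols had a probe, and each was represented by its probe with the highest mean signal. The representing probe was detected on all 4 arrays for 14220 genes (72.9%), and no probe was detected on any array for 3825 genes (19.6%).

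Signals are given as log2 of the processed spot signal, from which the same for the 75th percentile of all spots on that array was subtracted. A value of 0 is therefore that percentile and each step of 1 is a doubling. Detection ended near the same level on the 4 arrays, with the dimmest detected probe at -5.78, -6.20, -5.81 and -6.35 on replicates 1 to 4, and no spot was saturated. Among the 14220 genes the mean signal ran from -5.73 to 8.73 with a median of 0.29. A gene was called bright where it was at or above the 90th percentile of these genes on each of the 4 arrays, which lay near a signal of 3.53, and dim where it was at or below the 25th percentile on each array, which lay near -1.90. By this rule 1180 genes were bright and 3078 were dim. The brightness of a probe also depends on the probe itself. Among the 5935 genes with 2 or more probes detected on all 4 arrays, the brightest and the dimmest probe differed by a median of 2.50 on the log2 scale, and the gap was over 3 in 41.4% of them. The order of genes below is therefore an order of probe signals, while a comparison of 1 gene between arrays uses the same probe throughout. Probe base composition moved with detection too: 49.1% of probes under 40% G and C were detected on all 4 arrays, and 84.2% of those at or above 55%.

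Each probe that carries a lineage is a short stretch of the transcript it reads. The first 30 of the 60 bases are shown for 1 probe of each main cell type, as deposited and read 5′ to 3′, because the levels of these genes lead the description below. They are probes for Ddx4 and Stra8 (germ cells), Sycp3 (meiosis), Amhr2 and Dhh (Sertoli cells), Insl3 (Leydig cells), Acta2 (myoid cells) and C1qc (macrophages).
Ddx4: tttagatcatcagacatgtaatgaaaatgg
Stra8: ccagtagctagagttatactgccttgtctt
Sycp3: agaatgtttgcaatgaaacagatacacgag
Amhr2: atgagtagcttgtttgaactctctgtacag
Dhh: ccatgggtgttccttacaatccgccacaca
Insl3: ctcctggctatgtcattgcaacaacccagt
Acta2: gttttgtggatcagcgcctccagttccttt
C1qc: tctgggaaccacctaatggtattattcctg
In the mm7 build of the mouse genome, which the array design uses, these probes lie at chr13:109754306-109754365 (Ddx4), chr6:34870433-34870492 (Stra8), chr10:88027463-88030553 (Sycp3), chr15:102440656-102440715 (Amhr2), chr15:98878292-98878351 (Dhh), chr8:70157953-70158012 (Insl3), chr19:33942803-33942862 (Acta2) and chr4:136268288-136268347 (C1qc). The Sycp3 interval is longer than its probe. Which exon or untranslated region a probe falls in was not determined, since no annotation of that build was used here.

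Wild type replicate 1 differed from the other 3 arrays for the most genes, and the list means and spreads that rest on it are given with and without it. Over the 25433 probes detected on all 4 arrays, Pearson's r across probes was 0.986, 0.971 and 0.978 between replicate 1 and replicates 2, 3 and 4. It was 0.985 between replicates 2 and 3, 0.994 between 2 and 4 and 0.987 between 3 and 4, so the pairs with and without replicate 1 overlapped. Replicate 1 was more than 1 below the mean of the other 3 arrays for 517 genes (3.64%) and more than 1 above it for 245 genes (1.72%). The same counts were 42 and 31 genes for replicate 2, 236 and 125 for replicate 3, and 85 and 55 for replicate 4. Replicates 1 and 2 were on slide 1 and replicates 3 and 4 on slide 2. The label of the tissue fits its markers: genes of germ, Sertoli, Leydig and myoid cells were detected on all 4 arrays, and of the epididymal genes Lcn5, Lcn8 and Adam7 were detected on none and Rnase10 on 1.

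Of the 300 genes on 19 lists of cell type and control genes, 296 had a probe. Among these, 235 were detected on all 4 arrays (38 bright, 155 in the middle and 42 dim), 26 on some arrays, and 35 on none. Of all genes with a probe, 72.9% were detected on all 4 arrays. Of those 14220 genes, 1180 were bright and 3078 dim, and the counts of each list below are to be read beside these.

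**Figure D1:**
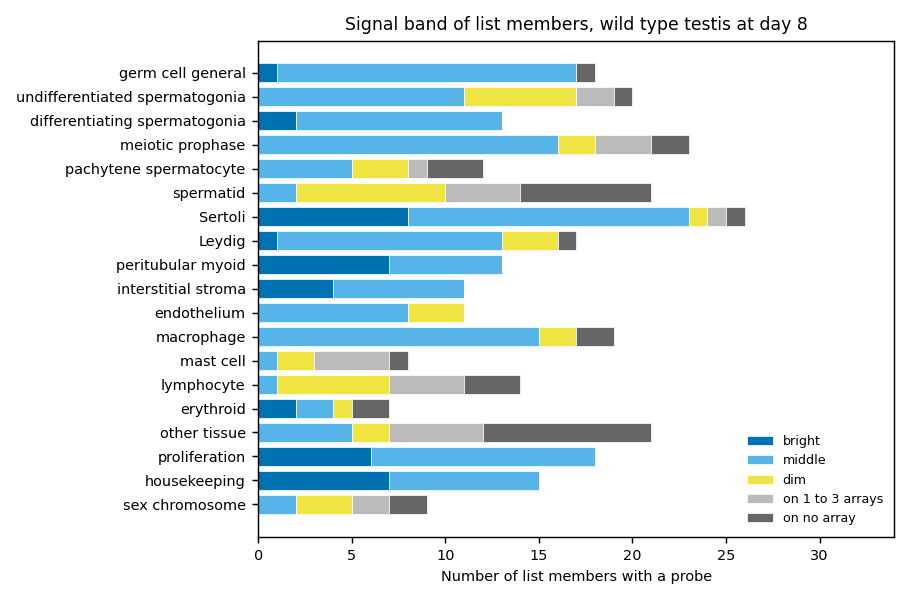
Number of members of each gene list (horizontal axis) by signal band, for the 19 lists (vertical axis). Sertoli, myoid and stromal lists hold 8 of 26, 7 of 13 and 4 of 11 members in the bright band. The lymphocyte and spermatid lists hold none and have 7 of 14 and 11 of 21 members that were not detected on all 4 arrays.

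**Figure D2:**
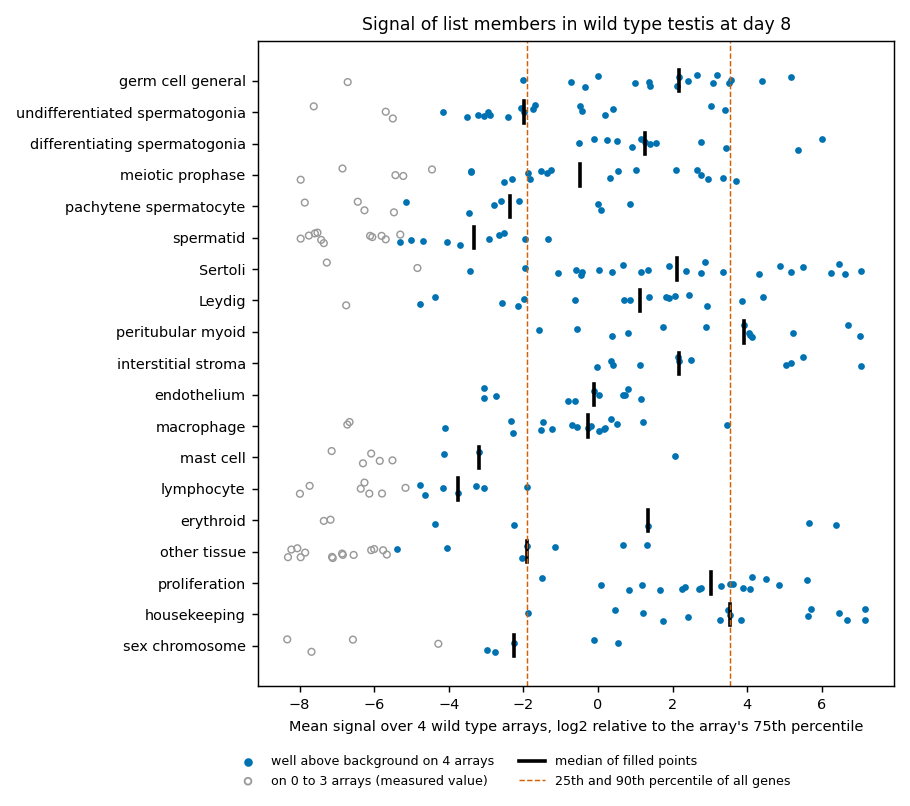
Mean signal over the 4 wild type arrays (horizontal axis, log2 above or below the array's own 75th percentile) of each list member (points), by list. Filled points were detected on all 4 arrays and open points on 0 to 3 arrays, black bars are the medians of the filled points, and the dashed lines mark the 25th and 90th percentiles of all 14220 genes, at -1.90 and 3.53.

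The general germ cell genes, which work at several stages and include the piRNA pathway that silences transposons, were well detected. Of 18 members, 17 were detected on all 4 arrays, with a median signal of 2.17 against 0.29 for all genes. Tex19.1, a germ cell gene that restrains retrotransposons, was the brightest at 4.74, 5.26, 5.55 and 5.10 on replicates 1 to 4, and was the only bright member. Tex101, a surface protein of germ cells, gave 3.09, 4.45, 4.8 and 5.24, and Gtsf1, a piRNA pathway protein, gave 2.95, 3.61, 3.88 and 3.81. Replicate 1 was the lowest array for all 3 genes.

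Ddx4 (the RNA helicase VASA) had signals of 1.48, 2.51, 3.01 and 2.63, and Dazl, an RNA-binding protein that germ cells need, had 1.67, 2.61, 3.36 and 2.94. Both lay on the 4 arrays at median percentiles of 80.8 and 82.9 among all genes. The dimmest detected member was Rnf17, a tudor domain protein of later germ cells, with a mean of -2.0 ± 0.65 (SD, n = 4). Pramel1 was not detected on any array, at measured values between -7.19 and -6.30.

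Genes of undifferentiated spermatogonia gave far lower signals. Of 20 members with a probe, 17 were detected on all 4 arrays, 0 were bright and 6 were dim, with a median signal of -1.99, at about the 25th percentile of all genes. Pou3f1 and Foxo1, transcription factors linked to stem cell maintenance, were the exceptions, with means of 3.41 ± 0.42 and 3.04 ± 0.24 (SD, n = 4). Sall4, a zinc finger factor of spermatogonia, followed at 0.40 ± 0.41.

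The receptor side of the niche signal was dim or undetected. Gfra1, the co-receptor for glial cell line-derived neurotrophic factor (GDNF), gave -2.97, -2.63, -3.40 and -3.19. Ret, the kinase partner of Gfra1, was not detected on any array, at -7.21, -7.90, -7.42 and -7.95, which is below the dimmest detected signal on each array. The GDNF ligand gene, Gdnf, made by Sertoli cells, was detected and dim at -2.36, -3.34, -4.13 and -3.90. Each of these 3 readings comes from the brightest probe of the gene, and Ret had 1 probe.

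Among the stem cell factors, Id4 had a mean of 0.19 ± 0.46, Lin28a -0.48 ± 0.52, Nanos3 -1.69 ± 0.26, Pou5f1 (Oct4) -1.99 ± 0.70, Neurog3 -2.42 ± 0.65, Etv5 -2.89 ± 0.45 and Utf1 -3.21 ± 0.39 (SD, n = 4). The second probe of Id4 had a mean of -3.31. Nanos2, an RNA-binding protein of the stem cell state, was the dimmest detected member at -4.13, -3.90, -4.18 and -4.39. Its signal lay at the 7.9th percentile of all genes and was detected on every array. Eomes was detected on 2 arrays and Pax7 on 3, and no probe was matched to Zbtb16.

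The genes listed for differentiating spermatogonia were detected throughout. The lists do not cleanly separate the cell states, since some of these genes, Uchl1 among them, are not confined to differentiating spermatogonia. All 13 members with a probe were detected on all 4 arrays, with a median signal of 1.25, and Uchl1 and Stra8 were bright. Uchl1, a ubiquitin hydrolase of spermatogonia that is also abundant in neurons, gave 5.52, 6.01, 6.5 and 6.03. Stra8, which retinoic acid switches on before meiosis, gave 4.14, 5.39, 5.97 and 5.89, and sat at the 98.5th percentile. Its lowest array was replicate 1, and the other 3 arrays lay within 0.58 of each other.

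Kit, the receptor for stem cell factor, had 0.73, 1.55, 1.71 and 1.57. Its ligand gene Kitl, made by Sertoli cells, had 1.72, 1.10, 1.52 and 0.98. Kit was lowest and Kitl highest on replicate 1. Scml2, a Polycomb protein of germ cells, had a mean of 3.43 ± 0.66, Rhox13 2.77 ± 0.88, Dnmt3b 1.55 ± 0.46, Sohlh2 1.25 ± 0.36 and Crabp1 0.91 ± 0.71. Without replicate 1 they had 3.74 ± 0.25, 3.20 ± 0.23, 1.77 ± 0.13, 1.42 ± 0.17 and 1.26 ± 0.11 (SD, n = 3). The dimmest member was Lin28b, at -0.50 ± 0.61.

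Of 23 genes of meiotic prophase with a probe, 18 were detected on all 4 arrays (78.3%, against 72.9% of all genes), with a median of -0.47. The brightest were Syce2 and Syce1, parts of the central element that joins paired chromosomes, and Smc1b, a cohesin of meiosis, with means of 3.70 ± 0.56, 2.96 ± 0.70 and 3.36 ± 0.76. Stag3 and Rec8, further meiotic cohesins, had 2.76 ± 0.37 and 2.65 ± 0.51 (SD, n = 4). Without replicate 1, Syce2, Syce1 and Smc1b had 3.97 ± 0.19, 3.30 ± 0.21 and 3.72 ± 0.29 (SD, n = 3).

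Sycp3, of the lateral element of the synaptonemal complex, was lower and variable, at -3.17, -1.61, -0.55 and -0.85. Its partners Sycp1 and Sycp2 had means of 0.53 ± 0.73 and -2.30 ± 0.65. Sycp3 on replicate 1 was 2.17 below the mean of the other 3 arrays, the largest gap of the list. The recombinase Dmc1 gave -2.53, -1.66, -2.17 and -0.94. Spo11, the enzyme that makes the breaks of meiotic recombination, was the dimmest detected member at -3.07, -3.25, -3.84 and -3.47.

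Prdm9, which sets the sites of recombination, was not detected on any array, at values from -8.44 to -7.55, and neither was Mei4, which helps to form breaks, on any of its 3 probes. Tex11 was detected on 3 arrays, and Msh4 and Hsf2bp on 2 arrays each. No probe was matched to Rad21l.

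Genes of the pachytene stage, a later part of prophase, were lower still. Of 12 members, 8 were detected on all 4 arrays, with a median signal of -2.36 and 0 bright. Hspa2, a chaperone of spermatocytes, was the brightest at 0.85, 0.79, 0.75 and 1.05, and was the only one of the 8 not lowest on replicate 1. The next were Clgn, a chaperone of the endoplasmic reticulum of germ cells, at 0.09 ± 0.64, and the transcription factor Tcfl5 at 0.01 ± 0.57. Piwil1, the pachytene piRNA protein MIWI, gave -3.35, -2.31, -3.17 and -2.28. H1f6, the testis linker histone H1t, was the dimmest detected member at -5.15 ± 0.37 (SD, n = 4). Pgk2, Acr and Mybl1 were not detected on any array.

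Spermatid genes stood lowest among the germ cell lists. Of 21 members, 10 were detected on all 4 arrays, 8 of them dim, 4 were detected on some arrays and 7 on none. The median of the 10 was -3.31, at the 13.7th percentile. Crem, Tnp1 and Prm1 were the brightest. Crem, a transcription factor that also serves many somatic cells, had -1.34 ± 0.18, and the transition protein gene Tnp1 had -2.68, -1.80, -1.57 and -1.85.

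The protamine gene Prm1, whose product packs sperm DNA, gave -2.38, -2.78, -2.31 and -2.55. Its other 2 probes had means of -4.78 and -7.88, so the signal of the brightest probe was not shared by the other probes of the gene. Prm2 and Tnp2 lay near the detection limit, at -5.32 ± 0.32 and -5.01 ± 0.30. Among the other spermatid genes, Odf1, Akap4, Smcp, Catsper1, Acrv1, the kinase gene Tssk2 and the linker histone gene H1f9 were not detected on any array. The acrosome genes Spaca1 and Zpbp and the sperm calcium channel gene Catsper3 were detected on all 4 arrays, with means of -2.65, -4.06 and -3.7.

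Sertoli cell genes included the most bright members of the cell type lists by count, but not by share. Of 26 members, 24 were detected on all 4 arrays, with a median of 2.13, and 8 were bright. The myoid list had 7 bright of 13 detected, and 1180 of all 14220 genes were bright. Clu, the secreted chaperone clusterin, was brightest at 7.36, 6.98, 6.98 and 6.88, at the 99.7th percentile of all genes. Cst9, a cystatin protease inhibitor, gave 6.83, 6.63, 6.47 and 6.59. Amhr2, the receptor for anti-Müllerian hormone, gave 6.80, 6.43, 6.40 and 6.19. These 3 genes varied little between arrays, with SDs of 0.21, 0.15 and 0.25, and each was highest on replicate 1.

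The signals that Sertoli cells send were spread over a wide range. Dhh, the hedgehog ligand that acts on Leydig and myoid cells, gave 5.84, 5.38, 5.57 and 5.15. The inhibin subunit genes Inha and Inhbb had means of 4.87 ± 0.41 and 4.31 ± 0.51, and all these 3 ligand or subunit genes were bright. The second probes of Inha and Inhbb had means of 1.91 and -1.2. Amh, the hormone that makes the Müllerian duct regress, was moderate and the most variable of the hormones, at 2.04, 0.78, 0.12 and -0.21. Hsd17b1, a steroid dehydrogenase, had a similar spread at 2.49, 1.43, 0.47 and 0.22. Both were higher on each array of slide 1 than on each array of slide 2. Neither was called in the comparison of slides below (limma adjusted p = 0.489 for each).

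Among the regulators of the Sertoli cell, Fshr, the receptor for follicle-stimulating hormone, gave 0.66, 0.21, -0.84 and 0.06. Replicate 3 was its lowest array. The transcription factor genes Sox9 and Wt1 had means of 2.75 ± 0.42 and 2.88 ± 0.35, whereas Gata4 had -1.07 ± 0.83 and Nr5a1 -0.46 ± 0.54 (SD, n = 4).

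Rhox5, an X-linked homeobox gene that androgen drives in Sertoli cells, gave 0.91, 1.92, 1.89 and 2.92, and was the only one of the 24 Sertoli genes detected on all 4 arrays that was lowest on replicate 1. Gdnf was the dimmest detected member, Tsx was detected on 3 arrays, and Cyp19a1, the aromatase that turns androgen into estrogen, was not detected on any array.

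Leydig cell genes were detected and of middle signal. Of 17 members with a probe, 16 were detected on all 4 arrays, with a median of 1.12, and 1 was bright. Hsd3b1, a steroid dehydrogenase, gave 4.75, 4.26, 4.28 and 4.35, and Scarb1, which takes up cholesterol, gave 4.28, 3.73, 3.65 and 3.83. Insl3, a peptide hormone of Leydig cells, gave 3.34, 2.53, 3.03 and 2.83.

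The other steps of steroid synthesis followed. Star, which carries cholesterol into mitochondria, gave 1.51, 0.45, 2.04 and 1.5. Cyp11a1, which cleaves the side chain of cholesterol, gave 2.43, 1.83, 1.74 and 2.22, and Cyp17a1, which makes androgen precursors, gave 2.58, 1.85, 2.65 and 2.64. Star and Cyp17a1 were lowest on replicate 2. Hsd17b3, which makes testosterone and in the fetal testis is known from Sertoli cells, gave 2.99, 2.22, 0.92 and 1.47. Both arrays of slide 1 were above both of slide 2, but it was not called in the comparison of slides below (limma adjusted p = 0.489).

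Lhcgr, the receptor for luteinizing hormone, was detected on all 4 arrays but was the dimmest member, at -4.60, -4.80, -4.79 and -4.86. Its single probe therefore lay at the 3.5th percentile of all genes while those of Cyp11a1, Cyp17a1 and Hsd3b1 lay at median percentiles of 74.1, 80.5 and 94.9. Hsd3b6, a dehydrogenase of adult Leydig cells, had -1.98 ± 0.36, Mc2r had -4.36 ± 0.33, and Sult1e1, which inactivates estrogen in Leydig cells, was not detected on any array. No probe was matched to Cyp11b1.

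**Figure D3:**
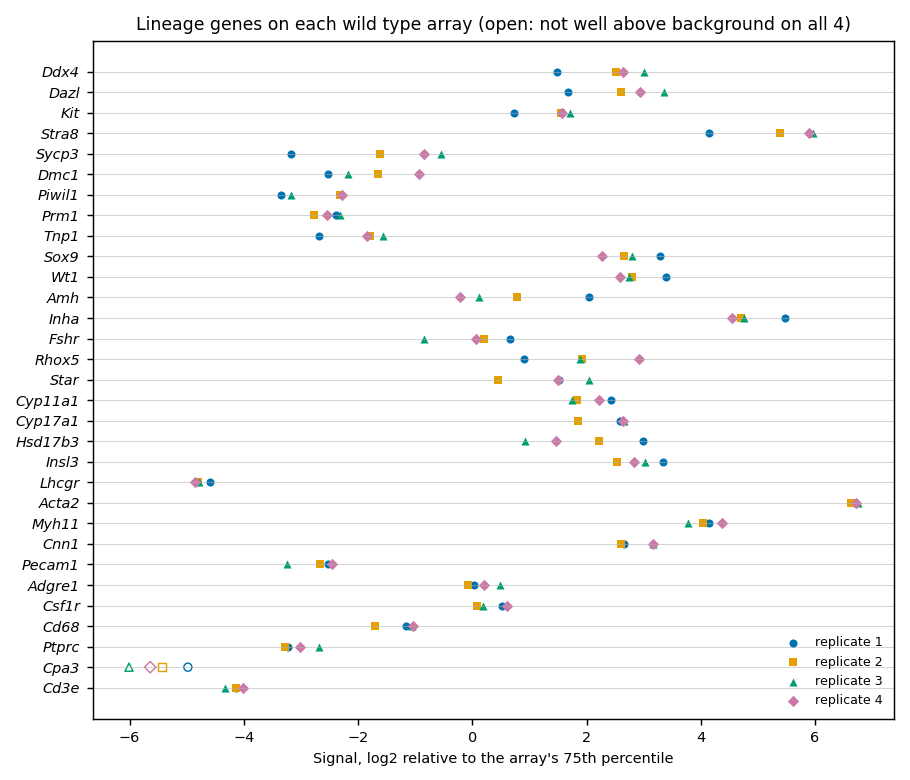
Signal (horizontal axis, log2 above or below the array's own 75th percentile) of 31 lineage genes on each of the 4 wild type arrays, with 1 marker shape per replicate and open markers for a gene not detected on all 4. Replicate 1 sits lowest for Ddx4 (1.48), Stra8 (4.14) and Sycp3 (-3.17) and highest for Inha (5.47) and Amh (2.04), and Acta2 lies between 6.63 and 6.75 on all 4 arrays.

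Represented by their brightest probe, peritubular myoid genes had a median of 3.92, the highest of the cell type lists, and all 13 members were detected on all 4 arrays. Myl9, a light chain of smooth muscle myosin, gave 6.94, 6.72, 7.31 and 7.12, and Acta2, smooth muscle actin, gave 6.70, 6.63, 6.75 and 6.71. Mylk, the kinase of that light chain, gave 5.26, 5.16, 5.25 and 5.28. With SDs of 0.05 on their brightest probes, Acta2 and Mylk were among the steadiest genes of all lists. The other probes of Acta2 had means from -7.11 to 3.79, and those of Mylk had -7.32 and 4.75. The smooth muscle myosin gene Myh11 had a mean of 4.08 ± 0.25, Cnn1 (calponin) 2.90 ± 0.32, and the dimmest member was Synpo2 at -1.58 ± 0.24. The genes of this list are also used by the smooth muscle of vessels. The order of lists depended on the probe rule: with the mean over all probes of a gene, the median was 1.74 for myoid, 1.39 for general germ cell, 1.35 for Sertoli, 0.09 for stromal and -1.09 for all genes.

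Stromal genes of the interstitium were all detected, 11 of 11, with a median of 2.18. The collagen genes Col1a2 and Col1a1 had means of 7.04 ± 0.20 and 5.18 ± 0.12, and Dcn, the proteoglycan decorin, had 5.50 ± 0.10 (SD, n = 4). Other probes of Col1a2 and Dcn were far lower, at -6.47 and -5.32. Markers of interstitial progenitor cells lay in the middle, with Tcf21 at 2.48 ± 0.09, Pdgfra at 2.18 ± 0.13 and Nr2f2 at 2.15 ± 0.19. Lum was the dimmest member at -0.02 ± 0.29.

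Represented by their brightest probe, endothelial genes were detected in full, 11 of 11, with a median of -0.10 and 0 bright. With the mean over all probes of a gene, the median was -3.03 for this list and -1.09 for all genes. Eng, a co-receptor of vessel cells, had 1.16 ± 0.19, Cldn5, a tight junction protein, 0.80 ± 0.28, and Cdh5, the cadherin of endothelium, 0.73 ± 0.31. Pecam1 (CD31) was dim at -2.53, -2.67, -3.25 and -2.45, and Tie1, a receptor kinase, was the dimmest at -3.06 ± 0.29.

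Among immune genes, those of macrophages had a higher median signal than those of lymphocytes. Of 19 macrophage members, 17 were detected on all 4 arrays, with a median of -0.27. Lyz2, lysozyme, gave 3.44, 3.04, 3.72 and 3.64, but its second probe had a mean of -3.43. The complement genes C1qc and C1qa had means of 1.21 ± 0.18 and 0.50 ± 0.13. Csf1r, the receptor for the macrophage growth factor, gave 0.52, 0.09, 0.19 and 0.60, and Adgre1 (F4/80) gave 0.02, -0.08, 0.49 and 0.20. The other probes of Csf1r had means of -1.53 and -6.02, and that of Adgre1 had -6.87 and was detected on no array. With the mean over all probes of a gene, the median was -1.4 for macrophage genes and -1.09 for all genes.

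Cd68 had a mean of -1.24 ± 0.31. The class II antigen-presentation gene H2-Aa was the dimmest detected member at -4.09 ± 0.85, while H2-Ab1, the partner chain, had -0.70 ± 0.44. Cd163 and Itgam (CD11b) were not detected on any array, at measured means of -6.66 and -6.72.

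Of 14 lymphocyte members, 7 were detected on all 4 arrays, 4 on some and 3 on none. The median of the 7 was -3.76, at the 10th percentile of all genes, and 6 of the 7 were dim. Lck, a kinase of T cells, was highest at -1.91 ± 0.21, followed by Ptprc (CD45, common to leukocytes) at -3.05 ± 0.27 and Nkg7 at -3.28 ± 0.11 (SD, n = 4). Cd3e had -4.15 ± 0.13, and Cd3d, the lowest detected member, had -4.78 ± 0.31. Cd8a, Il7r and Ncr1 were not detected on any array.

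Of 8 mast cell members, 3 were detected on all 4 arrays. Hdc, which makes histamine, had 2.62, 1.89, 1.80 and 1.97, whereas the proteases Cma1 and Mcpt4 had means of -3.18 ± 0.42 and -4.13 ± 0.49. The defining protease Cpa3 was detected on 3 arrays, at -4.98, -5.43, -6.01 and -5.64. All 3 detected members were highest on replicate 1, against 34.9% of all 14220 genes. Ms4a2, the receptor chain for immunoglobulin E, was not detected on any array.

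Of 7 erythroid genes, 5 were detected on all 4 arrays and 2 were bright. The hemoglobin genes Hbb-b1 and Hba-a1 were bright, with means of 6.37 ± 0.40 and 5.66 ± 0.54, and Hba-a1 was 5.86, 4.95, 6.24 and 5.57 on replicates 1 to 4. Alas2, which starts heme synthesis in red cells, had 1.34 ± 0.42, and was, like both hemoglobin genes, lowest on replicate 2. The embryonic gene Hbb-y was dim at -4.36 ± 0.28, and Epb42 was not detected on any array.

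Proliferation genes were detected in full, 18 of 18, with a median of 3.04 and 6 bright. The replication helicase genes Mcm6 and Mcm7 had means of 5.60 ± 0.17 and 4.85 ± 0.25, and Pcna, the sliding clamp of replication, had 4.50 ± 0.27. Aurkb was the dimmest, at -1.51 ± 0.25. The kinase gene Vrk1, for which the study made its mutant, is linked to cell division and gave -0.20, -0.11, 0.59 and 0.35 here, at the 47.8th percentile. Both arrays of slide 1 were below both of slide 2 for Vrk1, but it was not called in the comparison of slides below (limma adjusted p = 0.489). The second probe of the gene had a mean of -0.29.

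Represented by their brightest probe, housekeeping genes were the brightest list but for myoid genes by median, at 3.54, and 7 of 15 were bright. This rank depended on the probe rule. With the mean over all probes of a gene, the median was 3.54 for housekeeping, 2.88 for proliferation and 1.74 for myoid genes. The ribosomal protein genes Rps3 and Rplp0 had means of 7.17 ± 0.11 and 7.15 ± 0.10. Tbp, the TATA-binding protein, was the dimmest at -1.88 ± 0.23. The mean of the list lay between 3.77 and 3.83 on the 4 arrays.

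Of 21 genes of other tissues, 7 were detected on all 4 arrays, 5 on some and 9 on none. The liver gene Alb, the pituitary genes Gh and Prl, the glial gene Gfap, the kidney gene Umod and the oocyte gene Bmp15 were not detected on any array, nor were the 3 epididymal genes named above. Myh6, a cardiac myosin, and Ins2, an insulin gene, were the brightest of the 7. Myh6 gave 0.53, 1.49, 1.76 and 1.42, and its second probe had a mean of 0.19. Ins2 gave 0.38, 0.62, 0.81 and 0.83, and its second probe had a mean of 0.41. In both genes the 2 probes were each above the 25th percentile of all genes, so the detection did not rest on 1 probe. The brightest probe of each had 60.0% G and C, and 84.2% of all probes at or above 55% were detected on all 4 arrays. What else the probes of these 2 genes bind was not tested. The oocyte genes Zp3, Gdf9 and Nobox were detected on all 4 arrays too, at -1.15 ± 0.21, -1.89 ± 0.83 and -2.03 ± 0.75, and Adipoq was the dimmest detected member at -5.38 ± 0.30.

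Of the genes on the sex chromosomes, 5 of 9 were detected on all 4 arrays. The Y-linked genes Eif2s3y and Ddx3y had means of 0.54 ± 0.42 and -0.12 ± 0.22, followed by Kdm5d at -2.24 ± 0.32, and Zfy1 was the dimmest detected member at -2.98 ± 0.51. Sry and Uty were not detected on any array, and Xist, the RNA of the inactive X chromosome, was detected on 1 array.

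The brightest genes of the whole array were mostly those of the ribosome. Of the 15 highest, 11 encode ribosomal proteins or a protein fused to one: Rps18 (8.22), Rpl7a (8.07), Rps14 (7.80), Rpl41 (7.76), Rpl37a (7.75), Rps16 (7.74), Rps23 (7.74), Rplp2 (7.72), Rps2 (7.63), Fau (7.60) and Rpl8 (7.56), given as mean signals. Not every probe of these genes was bright, and the dimmest probes of Rps18 and Rpl7a had means of -2.91 and 0.73. Gstm1, a glutathione transferase, had 7.80 ± 0.22. The remaining 3, Lars2, Pigt and Ptprz1, were at 8.73 ± 0.25, 8.48 ± 0.35 and 8.09 ± 0.29 (SD, n = 4).

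The other probes of Pigt and Ptprz1 did not share that signal. Pigt, which helps to attach lipid anchors to proteins, had a second probe at -1.87, -1.96, -3.46 and -2.24, more than 10 below the first on the log2 scale. The other 3 probes of Ptprz1, a receptor phosphatase best known from glia, had means of -2.95, -5.87 and -8.01. Lars2, the mitochondrial leucyl-tRNA synthetase, had 1 probe. The first 30 bases are shown for the brightest probe of the array, that of Lars2, and for the brightest and next probe of Ptprz1, which differ in signal and are labelled as the same gene.
Lars2, mean 8.73: acgtcgctttttgatccttcgatgtcggct
Ptprz1, mean 8.09: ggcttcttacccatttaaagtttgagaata
Ptprz1, mean -2.95: tctggacagtaatggtgcagctttgcctga
They lie in mm7 at chr9:123178230-123178289, chr6:22942347-22942406 and chr6:22992824-22992884. What else these probes bind was not tested, and their signals are not read as the level of the named genes.

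The germ cell lists and the Sertoli list differed between replicate 1 and the other arrays in opposite directions. The mean of the general germ cell list was 1.13 on replicate 1 and 2.02, 2.39 and 2.23 on replicates 2 to 4, and all 17 detected members were lowest on replicate 1, against 35.1% of all 14220 genes. Genes of differentiating spermatogonia averaged 0.92, 2.08, 2.09 and 2.28, with 12 of 13 lowest on replicate 1. Those of meiotic prophase averaged -0.91, 0.09, 0.31 and 0.49, with 17 of 18 lowest there. In each of these 3 lists replicate 1 lay below the other 3 arrays by more than their whole range.

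Pachytene genes averaged -2.55, -1.74, -1.69 and -1.61, with 7 of 8 lowest on replicate 1. The list of undifferentiated spermatogonia was more mixed, at -1.60, -1.13, -1.34 and -1.46, with 8 of 17 lowest and 3 highest on replicate 1. Spermatid genes averaged -3.45, -3.43, -3.37 and -3.42, with 3 of 10 lowest on replicate 1. The spermatid share was thus close to the 35.1% of all genes.

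The Sertoli list averaged 2.76 on replicate 1 and 2.33, 1.98 and 2.11 on replicates 2 to 4, and 20 of 24 members were highest on replicate 1, against 34.9% of all genes. Leydig genes averaged 0.68, 0.23, 0.29 and 0.28, with 10 of 16 highest there. Stromal genes averaged 2.97, 2.83, 2.81 and 2.81, with 7 of 11 highest there. Myoid genes did not set replicate 1 apart, at 3.01, 2.88, 2.99 and 3.06, nor did macrophage genes, at -0.50, -0.60, -0.59 and -0.37. Proliferation genes averaged 2.51, 2.72, 2.98 and 2.85, with 14 of 18 lowest on replicate 1.

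The 5 detected genes of the sex chromosome list, all Y-linked, averaged -2.14, -1.46, -1.15 and -1.28, with 4 of 5 lowest on replicate 1. No test of replicate 1 against the others was made, since it is 1 sample and was singled out after its values were seen. What sets it apart was not tested.

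**Figure D4:**
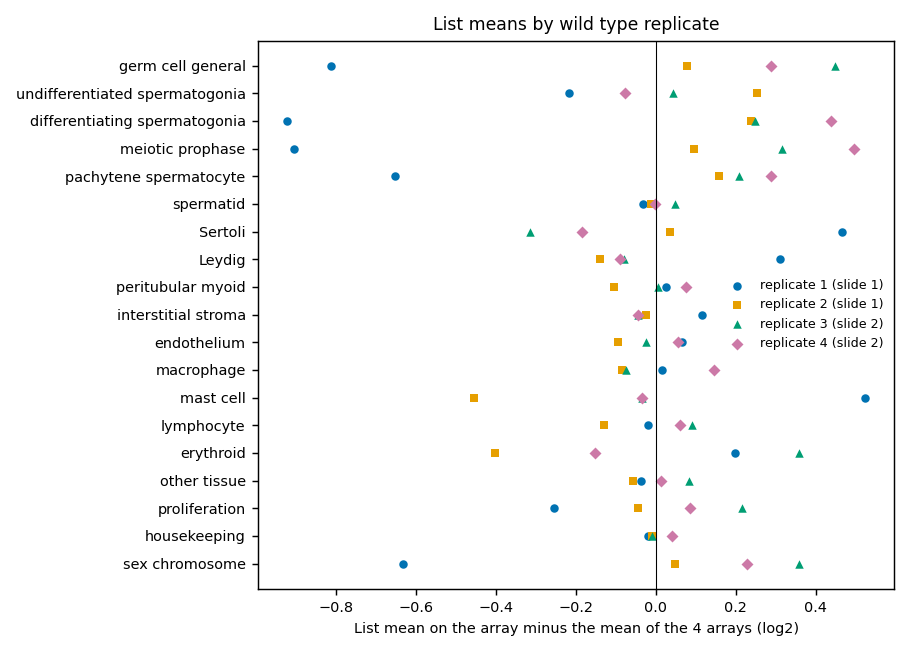
Mean of the detected members of each list on an array minus the mean over the 4 arrays (horizontal axis, log2), with 1 marker shape per replicate. Replicate 1 lies lowest for the germ cell and meiotic lists, whose means there were 1.13, 0.92, -0.91 and -2.55, and highest for the Sertoli list (2.76) and the Leydig list (0.68), while the housekeeping means lie between 3.77 and 3.83.

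Over all 14220 genes the median SD between the 4 arrays was 0.24, and 0.18 without replicate 1. For the general germ cell list the median SD of a member went from 0.57 to 0.20 when replicate 1 was left out. The same went from 0.65 to 0.23 for differentiating spermatogonia, from 0.67 to 0.26 for meiotic prophase and from 0.56 to 0.23 for pachytene genes. Leaving out replicate 2, 3 or 4 instead gave 0.69, 0.63 and 0.65 for the general germ cell list, 0.73, 0.71 and 0.70 for differentiating spermatogonia, 0.80, 0.77 and 0.63 for meiotic prophase and 0.59 each time for pachytene genes. Replicate 1 was singled out after its values were seen.

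The list of undifferentiated spermatogonia had 0.42 and 0.39, the spermatid list 0.27 and 0.22, and the Sertoli list went from 0.42 to 0.28. Myoid, stromal and housekeeping genes had median SDs of 0.22, 0.18 and 0.17 over the 4 arrays. Dim genes varied somewhat more in general: the median SD was 0.30 in the dimmest 25% of genes and 0.20 in the brightest 25%.

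**Figure D5:**
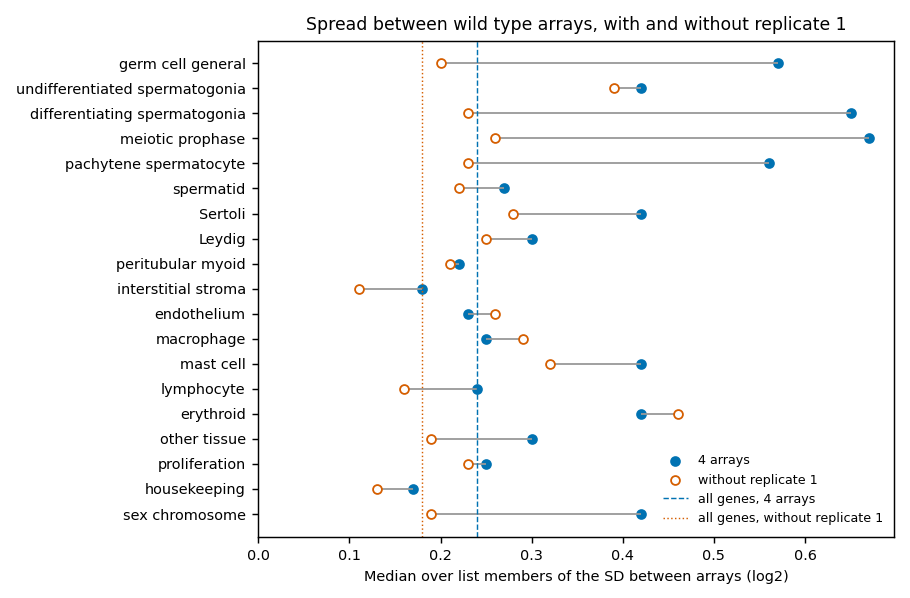
Median over the detected members of each list of the SD between arrays (horizontal axis, log2), for all 4 arrays (filled) and without replicate 1 (open), with the values for all genes as lines at 0.24 and 0.18. The germ cell, differentiating, meiotic and pachytene lists go from between 0.56 and 0.67 to between 0.20 and 0.26, and the list of undifferentiated spermatogonia stays near 0.4, at 0.39.

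Slide and position on the slide each group the 4 arrays 2 against 2, and slide was the one compared. With limma and Benjamini-Hochberg adjustment over the 25433 detected probes, 3 probes (0.0118%) differed between slides at an adjusted p under 0.05, all lower on slide 2, and 2571 had an unadjusted p under 0.05. None of the detected list members was among the 3. The calls depended on the setting: there were 0 with quantile normalization or with no scaling between arrays and 228 with another background correction (normexp), and 0 with array position as a block, an alternative chosen after seeing the data (2638 at an unadjusted p under 0.05). Leaving out replicate 1, 2, 3 or 4 gave 7, 180, 11 and 199, but each of these fits sets 1 array against 2 and takes the spread of the lone array from the other slide. One called probe was for Ptp4a2, a phosphatase, at 4.75 and 4.53 on slide 1 and 1.87 and 2.17 on slide 2, a difference of -2.62 ± 0.25 (SE, limma adjusted p = 0.0351).

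The other 2 probes of Ptp4a2 did not share the difference. One gave 4.51 and 4.31 on slide 1 and 4.86 and 4.39 on slide 2, and the other 1.90, 1.81, 2.04 and 1.82, differences of 0.21 and 0.08. The first 30 bases of the called probe and of the brightest other probe are shown because they lie close together in 1 gene and differ in this way.
Ptp4a2, called: taagatgcggttacgcttcagagataccaa
Ptp4a2, not called: gtgtcatcagagtagtaatggattcagtac
They lie in mm7 at chr4:129292418-129292477 and chr4:129292548-129292607. The other called probes read transcripts without a gene symbol, AK085826, at -1.37, -1.83, -4.99 and -4.40 (difference -3.10 ± 0.29, limma adjusted p = 0.0351), and TC1483835, at 0.15, -0.49, -3.97 and -3.13 (difference -3.38 ± 0.34, limma adjusted p = 0.0387).

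As to the lists, the mean of the germ cell list was 0.74 higher on slide 2, that of differentiating spermatogonia 0.69, of meiotic prophase 0.81 and of pachytene genes 0.50 higher, and the difference was -0.50 for the Sertoli list. With 2 arrays against 2, an exact two-sided permutation test cannot give a p below 0.333, which each of these 5 lists gave. Slide 1 holds replicate 1. Without it, the list means over the other 3 arrays were 2.21 ± 0.19, 2.15 ± 0.11, 0.29 ± 0.20, -1.68 ± 0.07 and 2.14 ± 0.18 (SD, n = 3), and slide 1 was represented by replicate 2 alone, on which these means were 2.02, 2.08, 0.09, -1.74 and 2.33.

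The genes that varied most between the 4 samples were not on the lists. Zbtb8os gave 0.35, -3.97, 1.73 and -3.30, with a second probe between -3.68 and -2.48, and Cox7c, a subunit of cytochrome oxidase, gave -0.25, -3.99, 0.47 and -3.37. Spata21 gave 0.44, -2.11, -0.02 and -2.72. In these 3 genes replicates 1 and 3, which were in the first position of their slides, were high, and replicates 2 and 4 were low. The 3 genes were grouped after their values were seen. Position was not tested for them and cannot be told apart from differences between the samples.

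Other large spreads came with 1 array. Slc4a7, a bicarbonate transporter, was high on replicate 3 alone, at -3.24, -3.64, 1.64 and -3.87. On the same array Ajuba (1.99, 1.59, -2.57 and 0.98), Cap1 (1.01, 1.83, -1.83 and 1.52) and Abcb10 (-1.54, -1.13, -4.64 and -1.95) were low. Abcb10 was low there on its second probe too, at -1.92, -1.50, -5.53 and -3.12. Chac1, a glutathione-degrading enzyme of the stress response, was high on replicate 1 alone, at 0.67, -2.92, -2.29 and -3.02. Mpo, a granule enzyme of neutrophils, gave -3.40, -1.02, -4.39 and -4.68, highest on replicate 2. Ska3, of the kinetochore, gave -0.40, 0.05, -3.27 and -2.22, lower on both arrays of slide 2 but not called between slides (limma adjusted p = 0.172).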

How the data were processed

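The deposited files hold one scanner table per array, per the file headers from Agilent Feature Extraction 9.5.3.1 with probe positions in mm7. Their processed signal is a spot intensity that the authors' software had background-corrected, on a linear scale and not scaled between arrays. A deposited value table of the series holds the same intensity values. The study names GeneSpring GX for analysis; the sources used here do not state how values were normalized. The depth of an array is not a read count, and the number of arrays limits the precision.

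Spots marked as outliers (58 to 134 per array) and control spots were left out, spots of 1 probe were averaged, and log2 of the signal minus the log2 75th percentile of the array was used. A probe counted as detected on an array where most of its spots carried the well above background flag. Probes were named through RefSeq accession (23082), symbol (6582) or synonym (3073), and 8437 kept the file's name. Slides were compared with limma 3.58.1 in R 4.3.3 (Benjamini-Hochberg, threshold 0.05). The code was also run on simulated data with planted differences and independent noise drawn from limma's own fitted variances. That run cannot show how the calls behave where an array differs for many genes together. Python 3 with pandas did the rest. The 4 samples come from their genotype label, and p-values measure the spread between these samples.

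Lists and named genes were chosen with earlier results of these data known. Named are 34 lineage genes, the 3 highest and the lowest detected member of each list and its members detected on no array, the 15 highest genes, the 10 with the largest SD, and the called probes with the largest slide differences (up to 5 each way). Other list members were added as examples after their values were seen. Some genes covered by this rule are not reported here by name. The alternatives tried were other normalizations, background corrections, probe rules, detection rules, leaving out each replicate and, chosen after seeing the data, array position as a block.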

Additional observations from a re-analysis of the deposited data

Results flagged for a closer look

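A group of 4 values was marked where its highest or lowest value lay apart from the others by a share of the whole range above Dixon's critical value for 4 samples, which chance gives in about 1 group in 20. Of 19 list means, 4 were marked, all through replicate 1: differentiating spermatogonia, low at 0.92 against 2.08 to 2.28, pachytene spermatocytes, low at -2.55 against -1.74 to -1.61, and, high, the Leydig list at 0.68 against 0.23 to 0.29 and the stromal list at 2.97 against 2.81 to 2.83.

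Of 126 named genes, 10 were marked. Replicate 1 was apart for Kit at 0.73, Lin28b at -1.42, Clgn at -0.86, Kdm5d at -2.73 and Zfy1 at -3.74, each low, and for Lars2 at 9.10, high. Replicate 2 was low for Cyp17a1 at 1.85, replicate 3 was high for Slc4a7 at 1.64 and for Rps3 at 7.33, and replicate 4 was low for Rpl8 at 7.37. What these single arrays share was not tested.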

How the results depend on the processing

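No paired analysis was possible because only wild type arrays were used and no replicate number is on both slides. The count of detected probes stayed within 1.5 times under all alternatives, from 25463 to 30574, and 38 bright list members became 26 with the top 5% and 56 with the top 20%. The 3 slide calls became 0 under quantile normalization, no scaling, the percentile over detected probes and no filter, 0 with array position as a block (chosen after seeing the data), 8 (2 higher and 6 lower on slide 2) with an intensity trend and robust variances, and 228 (74 higher, 154 lower) with normexp. Leaving out 1 array gave 7 to 199 calls: 7 without replicate 1, 180 without replicate 2, 11 without replicate 3 and 199 without replicate 4. Each of these sets 1 array against 2, with the lone array assumed to vary like the other slide, and says little of stability. The cause was not tested.

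Slide differences of list means changed sign as follows. With no scaling, the spermatid (-0.06), myoid (-0.03), endothelial (-0.08), macrophage (-0.04), other tissue (-0.02) and housekeeping (-0.08) lists did, and the median over all genes moved from 0.02 to -0.09. Undifferentiated spermatogonia turned to 0.01 with quantile normalization, 0.02 with normexp and endothelium to -0.01 with all probes averaged. Leaving out 1 array turned the sign in 6 lists, with differences from -0.28 to 0.20 for undifferentiated spermatogonia, -0.39 to 0.05 for Leydig cells, -0.05 to 0.11 for endothelium, -0.04 to 0.18 for macrophages, -0.56 to 0.42 for mast cells and -0.10 to 0.51 for erythroid genes. In another alternative chosen after seeing the data, replicate 1 stayed below the other arrays for the germ cell, differentiating, meiotic and pachytene lists and above for the Sertoli list (0.47 to 0.72) and the Leydig list (0.25 to 0.42) under each of 9 settings. Its general germ cell gap ran from -1.24 to -1.0, and myoid, endothelial, macrophage, lymphocyte and spermatid gaps changed sign. Replicate 1 was also below under all 9 settings for undifferentiated spermatogonia (-0.45 to -0.2), proliferation (-0.5 to -0.28) and sex chromosome genes (-1.0 to -0.5). The same held for other tissue (-0.21 to -0.01) and housekeeping genes (-0.19 to -0.01). It was above under all 9 for mast cell (0.48 to 0.78) and erythroid genes (0.1 to 0.48), and the stromal gap ran from 0.0 to 0.28. Averaging all probes of a gene moved the mean level of 16 of 19 lists, and normexp of 9, by more than its SD between arrays. The first moved the level of 39 of 126 named genes, and normexp 37, by more than their SD.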

Other observations

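Among the 20 of all 14220 genes farthest below the other arrays on replicate 1, by the gap to the mean of the other 3 arrays (log2), were Ly6k (-2.48), Figla (-2.43), Meioc (-2.11), Nxf2 (-2.04) and Fmr1nb (-2.02), chosen after their values were seen. Figla is an oocyte transcription factor and Meioc acts in the meiotic program. The same 20 hold Cacna1s at -2.20, Tnnt2 at -2.15, Tnni1 at -2.02 and Mybpc2 at -1.95. Tnnt2 gave -0.36, 0.94, 2.44 and 1.99 on replicates 1 to 4. Of the 73 detected members of the 5 germ cell lists up to pachytene, 36 (49.3%) were among the 500 genes lowest on replicate 1 by this gap, which are 3.52% of all genes, and 1 was among the 500 highest.

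The 20 genes farthest above the others on replicate 1 include Chac1 (3.42), Hoxb6 (2.83), H1f8 (2.78), Adamts16 (2.62), Slc7a3 (2.12), Zar1 (2.06), Inhbe (1.97) and Gdf15 (1.93). H1f8 is an oocyte linker histone and Zar1 a maternal-effect gene of the oocyte, while Chac1, Inhbe and Gdf15 are known as stress-response genes. Of the 24 detected Sertoli members, 9 (37.5%) were among the 500 genes highest on replicate 1, again 3.52% of all genes. What these genes share was not tested.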
